A study of Mus musculus with 6 samples.

Results

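The genes described here are 7 mouse genes for replacement histones: H2afy (macroH2A1), H2afx (H2A.X), H2afz and H2afv (both H2A.Z), H2afj (H2A.J), and H3f3a and H3f3b (both H3.3). They are 7 of 55450 genes in the deposited tables and were taken by their GENCODE vM21 names. They were chosen by their role and with their fold changes in these libraries known, the lower level of H2afy among them. Their levels and changes are therefore a description. Where an adjusted p from the fit over all genes is printed for one of them, it is part of that description and is no independent evidence.

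The libraries were made from naive CD4 T cells of wildtype mice aged 8 to 12 weeks. The cells were activated with anti-CD3ε at 0.25 μg/mL and anti-CD28 at 1 μg/mL and driven toward the Th17 state with TGF-β at 0.1 ng/mL and IL-6 at 20 ng/mL. Retrovirus of the murine stem cell virus (MSCV) type was added after 24 h, and the cells were kept for a further 48 h with TGF-β at 0.3 ng/mL and the same IL-6. There were 3 groups of 2 libraries, all transduced and all collected at 72 h: empty vector, ADAR2 WT, and ADAR2 E396A, a form without enzymatic activity. ADAR2 turns adenosine into inosine in double-stranded RNA. The series' design states that cultures came from 2 mice and that constructs were compared within a donor. Which libraries share a donor, called A and B here, was inferred from the authors' deposited statistics, since no library label gives it. Whether transduced cells were sorted is not given in the sources used here, so each value is an average over a culture.

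Replacement histones are made throughout the cell cycle and exchange with the canonical histones, whose genes are read mainly during DNA replication. MacroH2A joins a histone fold to a large macro domain and is known for marking repressed chromatin and inactive genes. H2A.Z sits at promoters and enhancers, H2A.X is phosphorylated around DNA breaks, H2A.J is a mammalian variant known to accumulate in senescent cells, and H3.3 is laid down at active genes and at silent repeats. In T cells, as in other dividing cells, these proteins coexist with a large supply of replication-dependent histones.

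Reads assigned to genes ranged from 16496328 to 21897166 per library. Adarb1, the gene of ADAR2, was at 3672 and 3333 normalized counts (reads divided by a size factor) in empty-vector cells, at 18422 and 18999 in ADAR2 WT cells and at 15644 and 14920 in ADAR2 E396A cells, so every construct library lay above both controls. The T cell genes Cd3e and Cd4 were at 3731 to 4742 and at 12013 to 15997 normalized counts. The Th17 cytokine genes varied far more, and both were higher in donor B in every group. For donors A and B, Il17a was at 2437 and 9279 in empty-vector cells, 6602 and 17878 in ADAR2 WT cells and 2616 and 18145 in ADAR2 E396A cells. Il17f was at 6646 and 14443, 10201 and 20715, and 5202 and 31376 in the same order. Il23r and Ccr6 complete the list of 6 T cell and Th17 genes. In ADAR2 WT cells against empty vector, Il17a (log2 fold change 1.19) and Il17f (0.57) were the 2 positive genes of the 6. The median of the 6 was -0.21 and the lowest value -0.53. With ADAR2 E396A 3 of the 6 were positive, with a median of 0.02. The 5 markers of CD8 and NK cells summed to 167 to 199, the 5 of B cells to 28 to 56, the 5 of myeloid cells to 44 to 65 and the 6 of erythroid and stromal cells to 18 to 30. Ncr1 and Ms4a1 had no read in the 6 libraries.

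In GRCm38, H2afy (ENSMUSG00000015937.15) lies at chr13:56073619-56136361 on the minus strand and H2afx (ENSMUSG00000049932.3) at chr9:44334694-44336077 on the plus strand. H2afz lies at chr3:137864487-137866922 and H2afj at chr6:136808244-136810074, both on the plus strand. H2afv lies at chr11:6427229-6444443, H3f3a at chr1:180800832-180813943 and H3f3b at chr11:116021912-116027962, all on the minus strand. All 7 passed the filter on low values.

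Several sequences show what a gene-level count of these genes can and cannot separate. H2afy has 2 complete coding transcripts that share 7 coding exons and differ in 1, the alternative exon behind the macroH2A1.1 and macroH2A1.2 forms. The exons lie on the minus strand of chromosome 13 (GRCm38), at chr13:56089758-56089857 in H2afy-201 and at chr13:56088252-56088342 in H2afy-202. Capitals mark the 48 bases that are identical when the pair is aligned from end to end.
H2afy-201: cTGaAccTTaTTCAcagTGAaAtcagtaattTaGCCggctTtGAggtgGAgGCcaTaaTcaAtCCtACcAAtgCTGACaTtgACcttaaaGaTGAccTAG
H2afy-202: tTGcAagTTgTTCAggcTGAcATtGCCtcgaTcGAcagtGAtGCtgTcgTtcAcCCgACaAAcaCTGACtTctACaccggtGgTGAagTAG
Reads of both forms enter the same H2afy count, so the values below do not say which form moved.

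H3f3a and H3f3b encode the same protein from different DNA. Of 408 coding bases, 313 (76.7%) were identical, and all 136 codons gave the same residue. The first 60 coding bases, at chr1:180811867-180811926 and chr11:116023950-116024009 (GRCm38, both on the minus strand), are shown with differing bases in capitals because those bases let reads be assigned to one gene or the other.
H3f3a: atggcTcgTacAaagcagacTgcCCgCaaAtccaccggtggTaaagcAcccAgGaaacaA
H3f3b: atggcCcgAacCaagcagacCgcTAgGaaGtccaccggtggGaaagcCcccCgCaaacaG
The H2A.Z genes are alike in the same way, with 304 of 384 coding bases identical (79.2%) and 3 of 128 codons giving another residue. Their first 60 coding bases are interrupted by an intron, spanning chr3:137864694-137865189 on the plus strand and chr11:6439397-6444339 on the minus strand.
H2afz: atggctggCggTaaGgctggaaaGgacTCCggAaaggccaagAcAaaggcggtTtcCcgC
H2afv: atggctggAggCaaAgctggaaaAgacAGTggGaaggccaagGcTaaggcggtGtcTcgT

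Serine codons followed by glutamine codons are given in capitals in the last 30 coding bases of H2afx and H2afj (chr9:44335161-44335190 and chr6:136808697-136808726, both on the plus strand). The pair of H2afj lies farther from the stop codon than the last pair of H2afx. The serine nearer the end of H2A.X is the residue that DNA damage kinases phosphorylate.
H2afx: aagaaggccTCGCAGgccTCTCAGgagtac
H2afj: aagacggagAGCCAGaaggtgaagagcaag
H2afx also carries the letters of the histone stem-loop, which ends replication-dependent histone mRNAs. The motif was searched on the transcript strand, with the required letters in capitals and any base at the others, and its match lies downstream of the coding part at chr9:44335240-44335255.
H2afx stem-loop: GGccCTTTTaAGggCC
H2afx was the 1 of 7 genes with these letters in an annotated transcript, against 44 of 70 replication-dependent histone genes (62.9%) and 0.161% of all genes with transcripts. Here and below, replication-dependent histone genes are those whose symbols start with Hist and a digit, so other genes with such symbols may be among them. A match describes letters and is not a test of processing, and the lack of a match does not show that a stem-loop is absent.

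**Figure D1:**
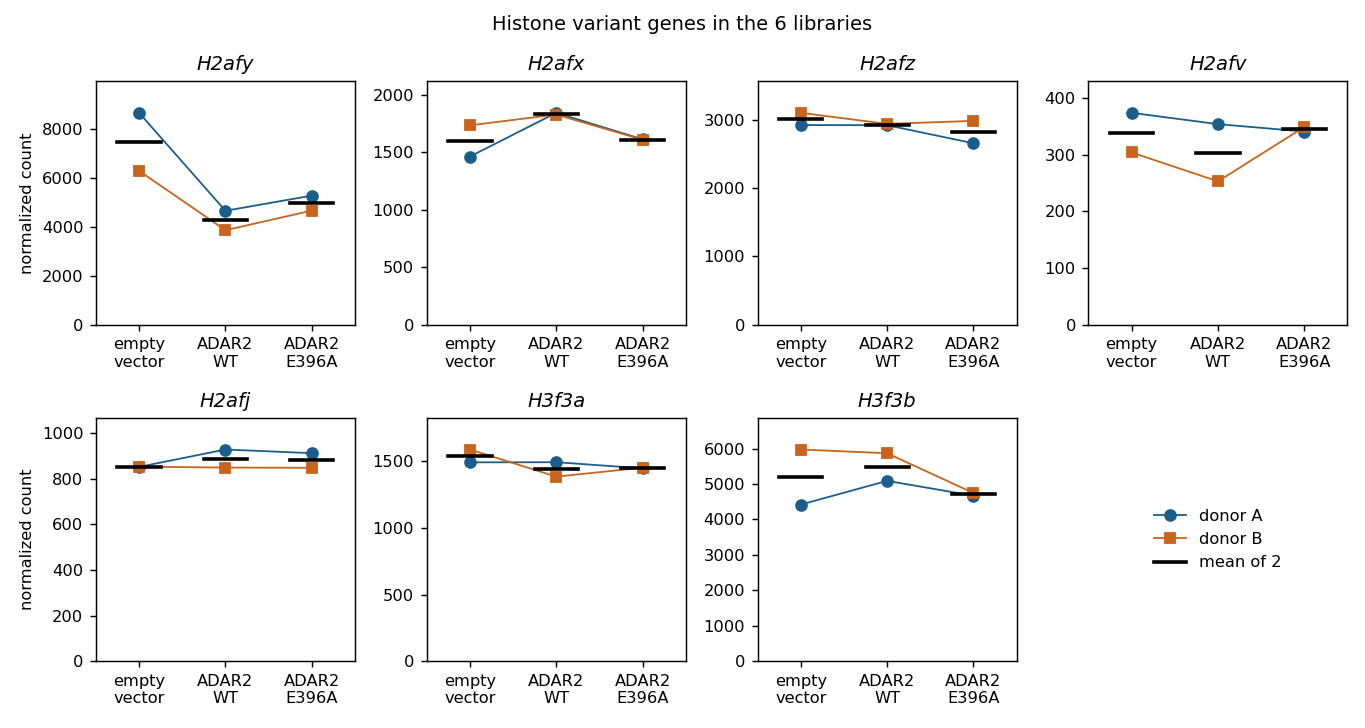
Normalized counts of the 7 genes (y axis, linear, from 0) in the empty vector, ADAR2 WT and ADAR2 E396A libraries (x axis); circles are donor A, squares donor B, lines join libraries of 1 donor and black bars are means of 2. H2afy ran from 8668 and 6294 in empty-vector cells to 4661 and 3865 in ADAR2 WT cells, while the other 6 genes stayed within 1.48-fold from lowest to highest library.

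H2afy, which encodes macroH2A1, was lower under either ADAR2 construct in both donors. Normalized counts for donors A and B were 8668 and 6294 in empty-vector cells, 4661 and 3865 in ADAR2 WT cells, and 5280 and 4668 in ADAR2 E396A cells. Both empty-vector libraries lay above all 4 construct libraries. The ADAR2 WT libraries lay below the ADAR2 E396A libraries, but barely so across donors. The closest were 4661 in donor A of ADAR2 WT and 4668 in donor B of ADAR2 E396A. H2afy in ADAR2 WT cells had a fitted log2 fold change of -0.80 (SE 0.08, n = 2 per group), or 0.575 of the empty-vector level. The change was -0.89 in donor A and -0.70 in donor B. With ADAR2 E396A the fitted log2 fold change was -0.57 (SE 0.08), or 0.672 of the empty-vector level, with -0.71 in donor A and -0.43 in donor B. Fewer cells that express H2afy and less H2afy RNA per cell cannot be told apart in these cultures.

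By limma's test over 14958 genes with donor as a term, H2afy passed an adjusted p of 0.05 in ADAR2 WT cells, and the other 6 of the 7 genes did not. Among all genes 0.816% were called in that comparison, 0.441% higher and 0.374% lower. Since H2afy was chosen with this contrast known, nothing is read from its call. The call was lost when either ADAR2 WT library was left out (limma adjusted p = 0.555 without donor A and 0.133 without donor B), when donor was not a term (0.634), and when the variance was not allowed to follow the level (0.343), while the log2 fold change lay between -0.82 and -0.78 in those 4 fits. In the ADAR2 E396A comparison limma called none of the 7, where 0.0134% of all genes were called (0.00669% higher and 0.00669% lower, with 582 genes at an unadjusted p under 0.05). DESeq2 called 7 genes there, H2afy among them (DESeq2 adjusted p = 2.98e-05). The fold change of H2afy stood low among all tested genes in both comparisons: 2.73% of genes had a lower value in ADAR2 WT cells and 2.23% in ADAR2 E396A cells. The comparisons share their empty-vector libraries. The authors' deposited table, made by DESeq2 with the libraries of 1 construct and empty vector, gave H2afy a log2 fold change of -0.80 in ADAR2 WT cells (SE 0.10, deposited adjusted p = 1.16e-12). In the authors' deposited table for ADAR2 E396A it was -0.57 (SE 0.14, deposited adjusted p = 0.291), which did not pass the threshold that the DESeq2 fit over all 6 libraries passed.

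The active form was also compared directly with the inactive one. H2afy was lower in ADAR2 WT cells than in ADAR2 E396A cells by -0.18 in donor A and -0.27 in donor B on the log2 scale, with a fitted difference of -0.23 (SE 0.08). It was not among the 0.0669% of genes called there (0.0134% higher and 0.0535% lower), and neither were the other 6. Adarb1 itself had a log2 difference of 0.29 between the constructs (limma adjusted p = 0.161), and the part of that difference in the H2afy values was not tested.

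H2afy values also differed between the inferred donors. Donor B was lower than donor A by -0.46 in empty-vector cells, -0.27 in ADAR2 WT cells and -0.18 in ADAR2 E396A cells on the log2 scale. The donor gap in empty-vector cells was thus smaller than the drop to either construct in donor A, and slightly larger than the drop of 0.43 to ADAR2 E396A in donor B. Over the 6 libraries H2afy spanned 2.24-fold, the widest range of the 7 genes.

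**Figure D2:**
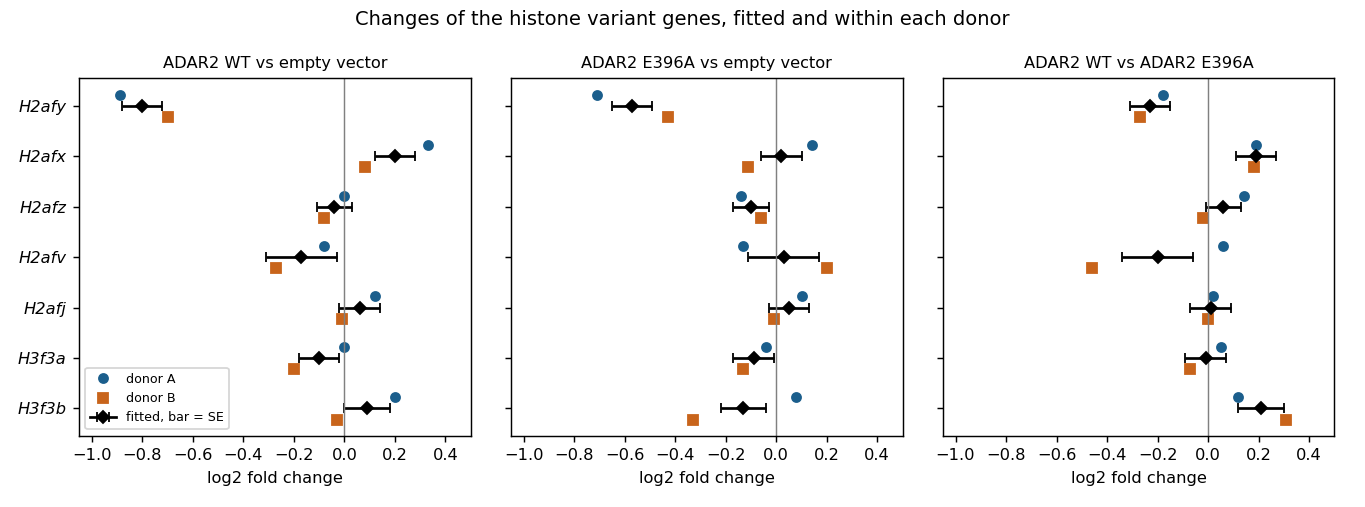
Log2 fold changes (x axis) of the 7 genes (y axis) in the 3 comparisons; diamonds with bars are fitted values with SE, circles donor A and squares donor B. H2afy lay at -0.80 in ADAR2 WT cells and -0.57 in ADAR2 E396A cells, with both donors left of 0, while fitted values of the other genes lay between -0.20 and 0.21 in the 3 comparisons.

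H2afx, the DNA damage variant, was at 1461 and 1732 normalized counts in empty-vector cells, 1841 and 1826 in ADAR2 WT cells and 1611 and 1607 in ADAR2 E396A cells. Both ADAR2 WT libraries were above the others, although donor B moved by 0.08 and donor A by 0.33 on the log2 scale. The fitted log2 fold change was 0.20 (SE 0.08) in ADAR2 WT cells and 0.02 (SE 0.08) in ADAR2 E396A cells. Against ADAR2 E396A the ADAR2 WT libraries differed by 0.19 (SE 0.08), with 0.19 and 0.18 in the donors. None of these was called. The values rest on single libraries: leaving out donor A or B of empty vector gave 0.08 or 0.33 in ADAR2 WT cells and -0.11 or 0.15 in ADAR2 E396A cells. The value of 0.33 was called, in a fit that left a single empty-vector library. Leaving out donor A of ADAR2 E396A also turned the sign for that construct (-0.04).

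Of the H2A.Z genes, H2afz was at 2919 and 3098 normalized counts in empty-vector cells, 2917 and 2936 in ADAR2 WT cells and 2653 and 2980 in ADAR2 E396A cells. Its ranges overlapped in all 3 comparisons, with log2 fold changes of -0.04 (SE 0.07) and -0.10 (SE 0.07) for the constructs. H2afv, the paralog with the fewest reads of the 7, was at 374 and 304 in empty-vector cells, 354 and 253 in ADAR2 WT cells and 341 and 349 in ADAR2 E396A cells. Its lowest library was that of ADAR2 WT in donor B, and its log2 fold changes were -0.17 (SE 0.14) and 0.03 (SE 0.14). Neither sign was stable: leaving out donor A or B of ADAR2 WT gave -0.35 or 0.01 for that construct, and leaving out donor A or B of ADAR2 E396A gave 0.25 or -0.18. The H2afz value in ADAR2 WT cells also turned, from -0.10 without donor A of ADAR2 WT to 0.02 without donor B. Per length of all annotated exons, H2afz made up 87.7% to 91.4% of the summed level of the pair.

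H2afj was the steadiest of the 7, spanning 1.09-fold over the 6 libraries. It was at 851 and 852 normalized counts in empty-vector cells, 927 and 848 in ADAR2 WT cells and 911 and 847 in ADAR2 E396A cells. Donor A was slightly higher with either construct and donor B was not. Its log2 fold changes were 0.06 (SE 0.08) and 0.05 (SE 0.08), and the latter was -0.02 without donor A of empty vector.

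Of the H3.3 genes, H3f3a was at 1490 and 1586 normalized counts in empty-vector cells, 1491 and 1383 in ADAR2 WT cells and 1445 and 1450 in ADAR2 E396A cells. Both ADAR2 E396A libraries lay just below the controls, with a log2 fold change of -0.09 (SE 0.08), and the ADAR2 WT value was -0.10 (SE 0.08). H3f3b was at 4419 and 5972 in empty-vector cells, 5089 and 5867 in ADAR2 WT cells and 4670 and 4746 in ADAR2 E396A cells. Its donors differed by 0.43 on the log2 scale in empty-vector cells, more than any fitted change of the gene. The log2 fold changes of H3f3b were 0.09 (SE 0.09) in ADAR2 WT cells and -0.13 (SE 0.09) in ADAR2 E396A cells, and the constructs differed by 0.21 (SE 0.09), the ADAR2 WT library being the higher one in both donors. Both signs against empty vector turned with single libraries. The ADAR2 WT value was -0.07 without donor A of empty vector and 0.25 without donor B. The ADAR2 E396A value was -0.29 without donor A of empty vector and -0.27 without donor A of ADAR2 E396A, but 0.04 and 0.03 without donor B of these groups.

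The 7 genes as a group had a median log2 fold change of -0.04 in ADAR2 WT cells, -0.09 in ADAR2 E396A cells and 0.01 between the constructs, against -0.002, -0.009 and 0.004 over all tested genes. Groups did not overlap for 2, 2 and 3 of the 7 genes. Among all tested genes that held for 37.2%, 23.4% and 36.7%, so the counts of the 7 say nothing particular about them. In the first comparison the 2 were H2afy and H2afx, in the second H2afy and H3f3a, and in the third H2afy, H2afx and H3f3b.

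**Figure D3:**
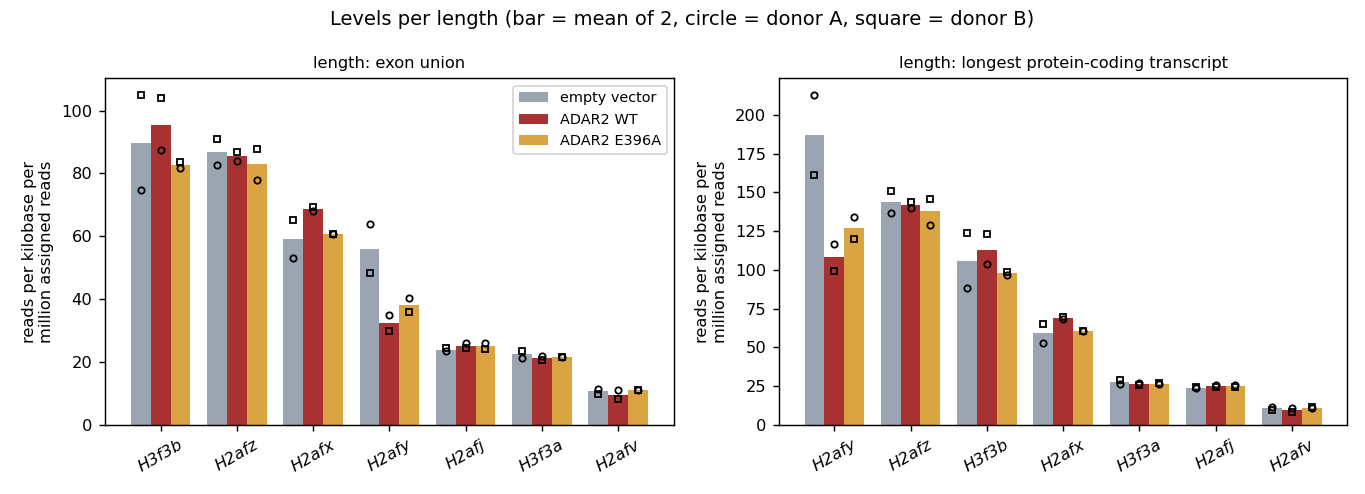
RPKM, reads scaled by length in kilobases and by the assigned reads of the library (y axis, linear, from 0) of the 7 genes (x axis) with the length of all annotated exons (left) or of the longest protein-coding transcript (right); bars are means of 2 libraries, circles donor A and squares donor B. H2afy stood 4th in empty-vector cells on the left and 1st on the right, and its bars are lower for both constructs. Both scales divide the same reads by a constant length, so the ratios between groups of a gene are the same on either.

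Levels were compared between genes per length, as RPKM (reads scaled by length in kilobases and by the assigned reads of the library). With the length of all annotated exons the order in empty-vector cells was H3f3b at 89.7 ± 21 (SD, n = 2), H2afz at 86.8 ± 5.9, H2afx at 59.2 ± 8.7, H2afy at 56.1 ± 11, H2afj at 23.8 ± 0.65, H3f3a at 22.5 ± 1.6 and H2afv at 10.6 ± 1.3. H3f3b and H2afz changed order between the donors, and so did H2afx and H2afy. H2afj lay slightly above H3f3a in both libraries (23.4 and 21.4 in donor A, 24.3 and 23.6 in donor B). With the length of the longest protein-coding transcript the order of that last pair turned, with means of 27.8 for H3f3a and 23.8 for H2afj. The place of H2afy depends on the length used, because its annotated exons sum to 6809 bases with retained introns and its longest coding transcript has 2046. With that shorter length H2afy came first, at 187 ± 37, ahead of H2afz at 144 ± 9.8. H3f3b supplied most of the H3.3 level, 77.7% to 83.4% of the pair over the libraries with exon length.

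The share of macroH2A1 among the 5 H2A-type genes moved with H2afy. Per exon length H2afy was 27.3% and 20.2% of their summed level in empty-vector cells, 15.6% and 13.6% in ADAR2 WT cells, and 18.7% and 16.3% in ADAR2 E396A cells. With the longest coding transcript the shares were 48.6% and 39.1%, 32.3% and 28.8%, and 37.2% and 33.1%. The order of the groups within each donor was the same with both lengths. Both divide the same reads by constants, so this is no independent check.

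Stretches that are nearly identical in other genes may limit some of these counts. Copies were annotated genes with at least 95% identity over at least 100 bases of a member's transcript. For H3f3a there were 19, of which 17 were pseudogenes. Together they held 737 to 960 reads per library, 34.0% to 39.0% of the reads of H3f3a and its copies, most of them in Smpd4, a protein-coding gene that shares 173 aligned bases with H3f3a. For H2afz there were 4, and Tmcc1, another protein-coding gene, held nearly all of their 485 to 652 reads, which were 15.7% to 18.9% of the reads of H2afz and its copies. Reads of Smpd4 and Tmcc1 were counted over the whole genes, so these shares do not measure misassigned reads. The pseudogene H3f3a-ps1 held 23 to 32 reads per library. How far the reads of the copies are reads of H3f3a and H2afz cannot be told from the counts. The copies of H2afx, H2afj and H3f3b held 0 to 16 reads per library and H2afv had none. Gm47071, an antisense gene that overlaps H2afy, had 36 to 83 reads, at most 1.52% of the reads of both. H3f3a is overlapped on the opposite strand by Gm17275 (38 to 62 reads, at most 4.23%) and H3f3aos (8 to 20 reads, at most 1.28%). Whether strand was used in counting is not given in the sources used here.

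Profiles over the 6 libraries differed among the 7 genes. H2afy and H2afx ran opposite to each other (Pearson r of log2 values -0.76, 6 libraries), H2afx and H3f3b ran together (0.78), and H2afv and H3f3b had the coefficient farthest from 0 among the 7 genes (-0.84). The H2A.Z genes had r = -0.24 and the H3.3 genes r = 0.14. These coefficients describe 6 libraries that share donors and controls. Among 9406 protein-coding genes whose mean reached 100 normalized counts, the profiles most like that of H2afy were Memo1 (r = 0.998), Cln8 (0.994) and Plgrkt (0.991). For H2afx they were Emc6, Rsl24d1 and Cdv3 (0.998 to 0.995), for H2afz Ptpn9, Zfp747 and Dnlz (0.998 to 0.987), and for H3f3b Slc7a1, Chuk and Atp6ap2 (0.995 to 0.989). For H2afv they were Smurf1, Thap3 and Dcaf8 (0.998 to 0.989), for H2afj Trap1, Nop10 and Fip1l1 (0.993 to 0.981), and for H3f3a Snrnp25, Stard3 and Uba2 (0.983 to 0.973). The highest of 9406 coefficients over 6 libraries are a description and say nothing of shared control.

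**Figure D4:**
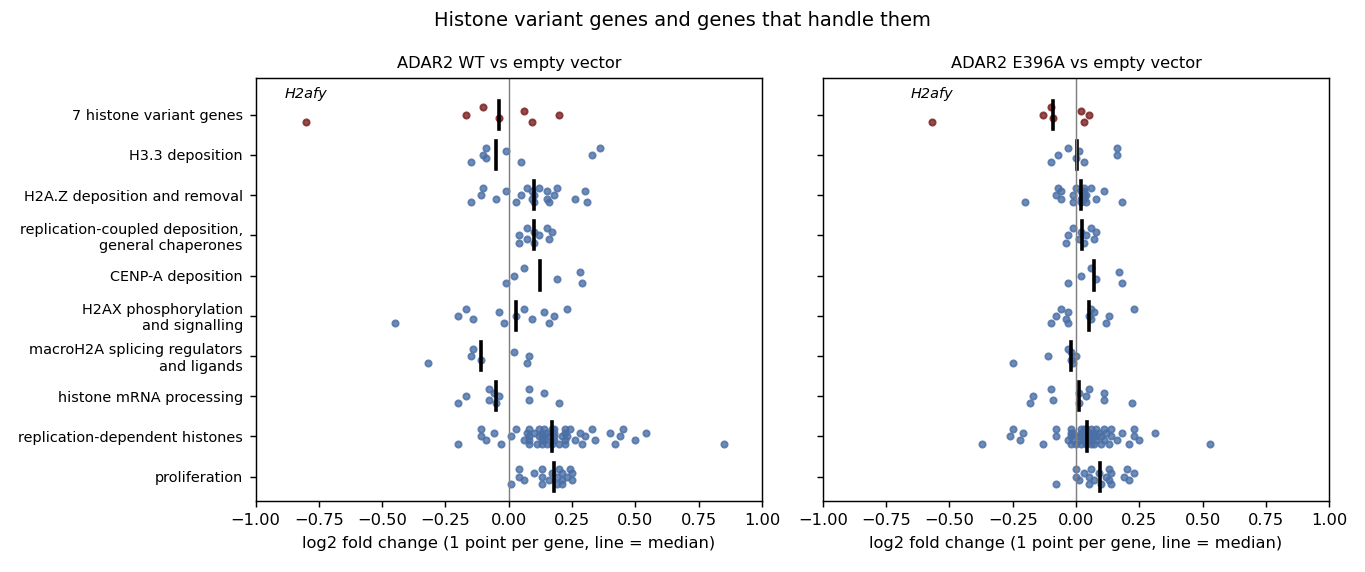
Log2 fold changes (x axis, 1 point per gene, black line the median) in ADAR2 WT cells (left) and ADAR2 E396A (right) against empty vector, for the 7 genes and 9 lists of genes that handle histones, encode replication-dependent histones or mark proliferation (y axis). H2afy lies left of every listed gene in both panels, and the medians of the lists lie between -0.11 and 0.18 on the left and between -0.02 and 0.09 on the right.

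Few other variant genes were measured well. Of 13 further variant genes in the tables, 4 passed the filter on low values and none was called in the 3 comparisons. Among all genes 0.816%, 0.0134% and 0.0669% were called, shares at which 4 genes can hold no call. H2afy2, which encodes macroH2A2, was at 32 and 23 normalized counts in empty-vector cells, 21 and 24 in ADAR2 WT cells and 33 and 24 in ADAR2 E396A cells, so nearly all macroH2A reads came from H2afy. Cenpa, the centromeric H3 variant, had log2 fold changes of -0.02 and 0.07 (SE 0.08, limma adjusted p = 0.954 and 0.999). H1f0, a linker histone of resting cells, had 0.30 in ADAR2 WT cells (SE 0.08, limma adjusted p = 0.142). The largest fitted change of the 4 was that of H1fx, 0.67 in ADAR2 WT cells (SE 0.25, limma adjusted p = 0.282). Its levels were low, at 36 and 53 normalized counts in empty-vector cells, 56 and 88 in ADAR2 WT cells and 33 and 74 in ADAR2 E396A cells. H2afy2, Cenpa and H1f0, and the chaperone, exchange, signalling and splicing genes below other than Npm1, are named with their values known. They are named for their roles, except Dek and Prkdc, which are named for their values, as is H1fx.

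Genes that deposit or remove these variants were not called either, beside 0.816% of all genes called in ADAR2 WT cells, a share at which short lists can hold no call. Of the 8 measured genes of H3.3 deposition none was called in either direction in ADAR2 WT cells, and Hira, a chaperone for active genes, and Daxx and Atrx, partners at repeats, had log2 fold changes of 0.05, 0.33 and -0.09 (limma adjusted p = 0.88, 0.13 and 0.619). Dek, another H3.3 chaperone, came closest at 0.36 (SE 0.07, limma adjusted p = 0.0612), with 2868 and 3248 normalized counts in empty-vector cells and 3910 and 3942 in ADAR2 WT cells. Of 21 genes of H2A.Z exchange none was called, and 16 had a positive log2 fold change in ADAR2 WT cells, where 49.6% of all tested genes did. Srcap, the exchange motor, had -0.05 (limma adjusted p = 0.871), and Anp32e, the chaperone that strips H2A.Z from nucleosomes, had 0.30 (SE 0.07, limma adjusted p = 0.114). None of 10 general or replication-coupled chaperones was called, though all 10 were positive in ADAR2 WT cells, and the most abundant, Npm1, had 0.04 (limma adjusted p = 0.853). Positive values were also found for 3 of the 8 H3.3 genes, 5 of 6 genes of CENP-A deposition, 7 of 13 genes of H2AX signalling and 4 of 11 genes of histone mRNA processing, with no call. Prkdc, a kinase of H2A.X, had the lowest value of its list, -0.45 (SE 0.10, limma adjusted p = 0.0934). Atm and Atr, of the same list, had -0.14 and -0.20 (limma adjusted p = 0.471 and 0.315). With ADAR2 E396A no gene of these lists was called, beside 0.0134% of all genes. At that share the lack of a call says nothing particular about the lists.

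Of the 7 regulators of macroH2A1 splicing and ligands of its macro domain, none was called in the 3 comparisons. Among all genes 0.816%, 0.0134% and 0.0669% were called there, so the lack of a call says nothing particular about these genes. Qk and Mbnl1, RNA-binding proteins that act on the alternative exon, had log2 fold changes of 0.02 and -0.15 in ADAR2 WT cells (limma adjusted p = 0.945 and 0.325). Parp1, which makes the ADP-ribose that the macro domain of one form binds, had -0.14 (limma adjusted p = 0.45).

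Replication-dependent histone genes and proliferation markers had mostly positive fold changes beside the lower H2afy. Of 56 replication-dependent histone genes that passed the filter, 50 were positive in ADAR2 WT cells, where 49.6% of all tested genes were, with a median log2 fold change of 0.17, and 1, the linker histone gene Hist1h1e, was called higher (0.42, SE 0.07, limma adjusted p = 0.0426), beside 0.441% of all genes. Hist1h1e was at 3553 and 3683 normalized counts in empty-vector cells and at 4994 and 4689 in ADAR2 WT cells. Leaving out a single library ended that call in 3 cases: donor A of ADAR2 WT (limma adjusted p = 0.895), donor B of ADAR2 WT (0.469) and donor A of empty vector (0.114). It was also lost when donor was not a term (0.634), when the variance was not allowed to follow the level (0.412), with a filter at a mean of 50 normalized counts (0.0538), and by edgeR without the donor term (edgeR adjusted p = 0.622). With ADAR2 E396A 40 of the 56 were positive, where 46.9% of all tested genes were, with a median of 0.05. None was called there, beside 0.0134% of all genes. All 20 proliferation markers were positive in ADAR2 WT cells (median 0.18) and 18 in ADAR2 E396A cells (median 0.09). None was called, beside 0.816% and 0.0134% of all genes. Their summed level was 65796 and 70549 normalized counts in empty-vector cells, 77249 and 74416 in ADAR2 WT cells and 70432 and 76086 in ADAR2 E396A cells. The part of these differences in the values of the 7 genes was not tested.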

How the data were processed

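Libraries were made from ribosome-depleted RNA, per the labels' protocols. The submitters' processing notes name mm10, featureCounts, DESeq2 1.18.1 and STAR 2.6.1a. Neither the strand setting nor the annotation is given in the sources used here. For each construct the authors deposited a table with normalized counts per library (a signal), a log2 fold change with its standard error, a Wald statistic (a score) and p-values, per the file headers. The sign of deposited fold changes was turned, so that positive means higher with the construct.

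Library columns carry no group label. A column found in both tables was assigned to empty vector, any other to the construct that names its table. Values above 0 were whole multiples of 1 step (100% within 0.001), which gave back the reads. Donors were paired as needed to return the deposited Wald statistics: the largest difference was 5.72e-05, against 2.03 or more with no donor term and 6.08 or more with donors crossed.

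Reads were scaled by median-of-ratios factors, filtered with filterByExpr and tested with limma 3.58.1 (R 4.3.3) on log2(normalized count + 1), a scale that understates changes of low genes. Group and donor were terms, over all 6 libraries, with Benjamini-Hochberg adjustment at 0.05. The variance was allowed to follow the level, which the written design did not specify: a first fit without this trend called 0 genes in all 3 comparisons, fits with the trend and with robust variances were then tried, and the trend was adopted after their calls were seen, because it returned the counts of calls of earlier processing of these data. Calls therefore rest on that choice, and all of these fits are among the alternatives. edgeR 4.0.16 and DESeq2 1.42.0 were alternatives on recovered reads. The test was also run on simulated counts, which held no donor differences. That run bears on neither the donor term nor the choice of the variance trend.

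The 7 genes and all lists were chosen with earlier results of these data known. The written rule named the 7 genes, Adarb1, up to 4 passing genes per list, the most abundant chaperone and the 3 genes most alike each member. Other genes named above fall outside that rule and were picked with their values known. They are the further variant genes, the cell type markers and the genes of the lists that did not pass. Positions and sequences are from GENCODE vM21 (GRCm38).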

Additional observations from a re-analysis of the deposited data

How the results depend on the processing

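The log2 fold change of H2afy was negative in all 20 alternatives of each comparison: -0.92 to -0.68 for ADAR2 WT, -0.69 to -0.46 for ADAR2 E396A and -0.32 to -0.14 between the constructs. For ADAR2 WT it was called in 15 of 20 (adjusted p 2.41e-25 to 0.634). The other 5 omitted the ADAR2 WT library of donor A (limma adjusted p = 0.555) or B (0.133), the replicate block (0.634 by limma, 0.622 by edgeR) or the variance trend (0.343). For ADAR2 E396A it was called in 5 of 20. Those were DESeq2 (adjusted p = 2.98e-05), limma with no filter (limma adjusted p = 0.0349) and limma fits that omitted a library. The omitted library was donor B of empty vector (log2 fold change -0.69), donor A of ADAR2 E396A (-0.48) or donor B of ADAR2 E396A (-0.66). Between the constructs H2afy (log2 fold change -0.32) and H3f3b (0.36) were called when donor A of ADAR2 E396A was omitted. H2afx for ADAR2 WT (0.33) was called when donor B of empty vector was omitted. Fits that omit a library leave a single library in a group. Those fits, and that of the 4 libraries of a comparison alone, which gave 2.41e-25, have little to estimate the spread from. Their calls are therefore no measure of strength.

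The counts of all genes called were 122 for ADAR2 WT, 2 for ADAR2 E396A and 10 between the constructs. In that order, DESeq2 called 210, 7 and 111, no filter gave 220, 5 and 102, and the 4 libraries of a comparison alone 1237, 1 and 194. A mean of at least 50 gave 58, 2 and 3, and TMM factors 183, 3 and 39. Without the replicate block limma called 2, 1 and 0 (732 at an unadjusted p under 0.05 between the constructs), edgeR 1, 1 and 0 (739) and DESeq2 52, 3 and 12. Limma with no variance trend, the first fit made, called 0, 0 and 0 (1556, 757 and 1359 at an unadjusted p under 0.05), and limma with the trend and robust variances 165, 3 and 29. Leaving out 1 library gave 1 to 1217, 1 to 127 and 0 to 844. The cause was not tested. The fits with other variance settings, and those of edgeR and DESeq2 without the block, were chosen after seeing the data.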
